A study of Mus musculus with 5 samples.

Results

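Hedgehog signalling passes from a secreted ligand to zinc finger transcription factors, and 8 genes of this pathway were described here by the accessible chromatin at and around them: Shh, Lmbr1, Ptch1, Smo, Sufu, Gli1, Gli2 and Gli3. A peak was counted when its summit lay inside one of these genes or within 100 kb of it with no other protein-coding gene nearer, and the whole span from Shh through Lmbr1 was added. Peaks of the 5 libraries that overlapped by at least 1 bp were joined, which gave 268 regions for these genes out of 231612 regions in all. The genes with most regions were Gli3 with 71 and Gli2 with 63, and Smo had the fewest with 5. A further 49 regions lay in the span between Shh and Lmbr1 with no Hedgehog gene nearest.

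The assay was ATAC-seq, which tags open DNA with a transposase, on CD1 mouse embryos with no allele or treatment named. Ectoderm of the distal limb was taken at E14.5, with 2 libraries for the forelimb and 2 for the hindlimb, and the E13.5 forebrain had 1 library. Trypsin separated the ectoderm from mesoderm, whereas the forebrain was dissociated by collagenase, and the effects of tissue, stage and enzyme cannot be told apart. Nothing states that the replicates are different embryos, and with 1 forebrain library and 2 libraries per limb no test was run, so every comparison is a count or a value.

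As background, the ligand Shh binds Ptch1, which otherwise holds the membrane protein Smo inactive, and active Smo releases the Gli proteins from their inhibitor Sufu. Gli2 acts mainly as an activator, Gli3 mainly as a repressor, and Gli1 and Ptch1 are themselves transcribed in responding cells. Lmbr1 is known in this pathway because one of its introns holds the limb enhancer of Shh, which acts in posterior limb mesenchyme, while in skin Shh is made by the epithelium of hair placodes and in the forebrain by ventral cells.

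The lists held 73830 and 73718 distinct peaks in forelimb 1 and 2, 51510 and 78147 in hindlimb 1 and 2, and 120297 in forebrain. The lists give no read totals. The background rate implied by the fold and p-value of the peaks was 3.1 to 4.36 reads per position in ectoderm and 4.62 in forebrain, and the smallest summit called over plain background held 10 to 12 reads in ectoderm and 12 in forebrain. A region without a peak is therefore one where none was called at this depth, not one shown to be closed. Peaks within 1 kb of a gene end were found for 7, 8, 5 and 7 of 10 epidermal markers in the ectoderm libraries, against 4 in forebrain, and Krt8 and Krt18 had none in any library. Of 12 forebrain markers, 3 or 4 had such a peak in each ectoderm library, against 12 in forebrain. Of 7 limb mesenchyme markers, 3 or 4 had one in each ectoderm library, against 7 in forebrain. Melanocyte markers had one at 2, 3, 2 and 2 of 5 genes in the ectoderm libraries, against 4 in forebrain. Endothelial markers had one at 2 of 4 genes in each ectoderm library, against 3 in forebrain. Blood markers had one at 0 of 4 genes in each ectoderm library, against 1 in forebrain. The part of other cells in the results was not tested.

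The promoters that the gene ends turn on are shown as RefSeq gives them on GRCm38.p6 (the mm10 assembly), from 250 bases before to 50 bases after the start and written along the gene. They are those of Gli2 and Gli3, which had a peak over the start in every library, and of Ptch1, whose start lay under no peak in any library. Capitals mark the GC box GGGCGG on either strand, the letters bound by Sp1.
Gli2, chr1:119053570-119053869, minus strand: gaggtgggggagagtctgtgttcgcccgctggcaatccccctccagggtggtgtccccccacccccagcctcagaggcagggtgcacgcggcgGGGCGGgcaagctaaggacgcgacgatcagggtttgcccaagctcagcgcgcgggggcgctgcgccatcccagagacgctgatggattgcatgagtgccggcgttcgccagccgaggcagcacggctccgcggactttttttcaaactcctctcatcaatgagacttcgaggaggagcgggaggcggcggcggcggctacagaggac
Gli3, chr13:15463473-15463772, plus strand: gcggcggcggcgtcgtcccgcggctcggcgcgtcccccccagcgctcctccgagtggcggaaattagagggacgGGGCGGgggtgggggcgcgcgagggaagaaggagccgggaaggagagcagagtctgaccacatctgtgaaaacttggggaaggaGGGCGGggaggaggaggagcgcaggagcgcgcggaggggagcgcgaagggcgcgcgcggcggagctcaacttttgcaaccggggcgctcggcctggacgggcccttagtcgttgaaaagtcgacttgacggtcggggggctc
Ptch1, chr13:63565686-63565985, minus strand: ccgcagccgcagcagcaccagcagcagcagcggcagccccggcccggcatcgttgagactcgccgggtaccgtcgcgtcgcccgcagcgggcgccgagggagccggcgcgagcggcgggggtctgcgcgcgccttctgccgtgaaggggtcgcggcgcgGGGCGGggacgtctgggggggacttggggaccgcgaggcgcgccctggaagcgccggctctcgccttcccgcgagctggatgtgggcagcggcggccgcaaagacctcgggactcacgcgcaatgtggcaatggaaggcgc

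Of the 8 genes, 6 matched a promoter sequence in the RefSeq table, and Shh and Gli1 did not. The GLI site GACCACCCA was found on either strand in none of these 6, against 0.253% of 32851 mouse promoters of the same length. The GC box was present 1 time in Gli2, Ptch1 and Sufu, 2 times in Gli3 and 3 times in Lmbr1, against 35.7% of all promoters with at least 1. The CCAAT box CCAAT, on either strand, was found in Sufu, against 37.4% of all promoters, and the AP-1 letters TGANTCA in none of the 6, against 7.81%. The GC content of the 6 promoters ran from 56.3% in Sufu to 76.3% in Ptch1, above the median of 52.7% over all promoters. These letter matches describe the window and do not mark sites of binding.

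Across all 268 regions the shares by tissue were close to those of the whole series. A peak in all 4 ectoderm libraries and none in forebrain was called for 8 regions (2.99%, exact Clopper-Pearson 95% interval 1.3 to 5.8%), against 2.33% of all regions. A forebrain peak with none in any ectoderm library was called for 92 regions (34.3%, 28.7 to 40.3%), against 33.1% of all regions. All 5 libraries had a peak in 18 regions (6.72%), the same share as the 6.72% over all regions. These intervals cover counting error only, and the 3 shares are no result about Hedgehog genes as a group. By gene, Gli2 had 5 of the 8 ectoderm-only regions, Gli3 and Sufu had 1 each, and 1 lay in the Shh to Lmbr1 span. As shares these were 7.94% of 63 regions at Gli2, 1.41% of 71 at Gli3 and 7.14% of 14 at Sufu. Differences between the genes were not tested. At least 1 ectoderm-only region was thus found at 3 of 8 genes, against 14.2% of 21883 protein-coding genes. That comparison does not allow for region number, since the 8 genes had 219 assigned regions and the 21883 genes 182734, far fewer per gene.

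**Figure D1:**
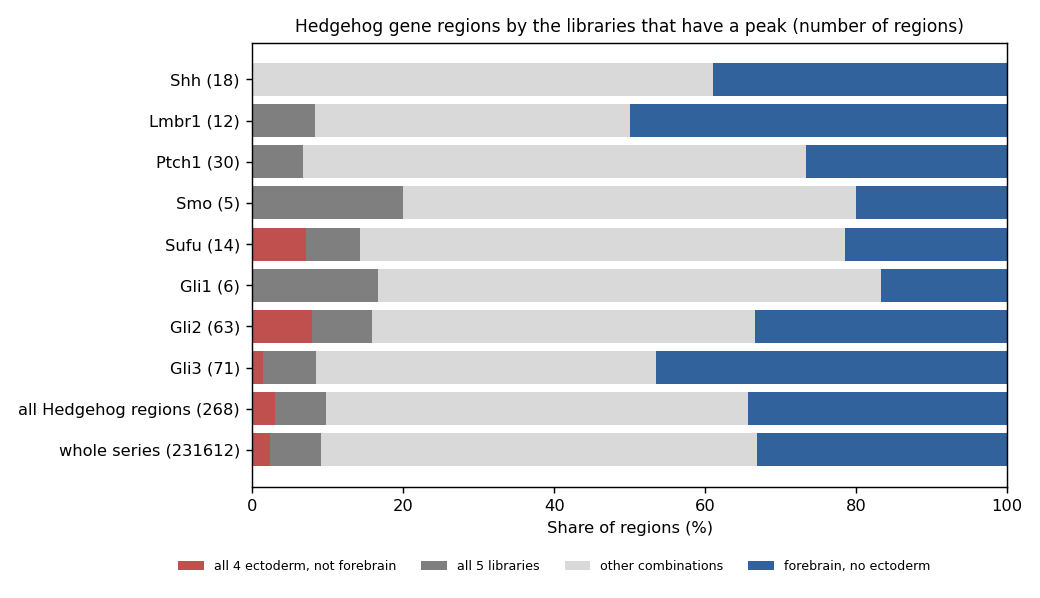
Share of regions (%, horizontal axis) with a peak in all 4 ectoderm libraries and none in forebrain, in all 5 libraries, in other combinations, and in forebrain with no ectoderm peak, for each Hedgehog gene, all 268 Hedgehog regions and the 231612 regions of the series. The ectoderm-only block is widest for Gli2 (7.94%) and the forebrain-only block is widest for Lmbr1 (6 of 12 regions) and Gli3 (46.5% of 71).

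The ligand gene carried no ectoderm peak. Shh lies at chr5:28456840-28467101 and spans 10.3 kb. The ectoderm libraries listed 0 peak rows with a summit inside it, against 7 rows in forebrain. The nearest ectoderm summits were 5423 bp (forelimb 1), 9011 bp (forelimb 2) and 5421 bp (hindlimb 2) beyond its lower end, and 25.1 kb beyond its upper end in hindlimb 1. In forebrain a summit lay 31 bp beyond the upper end. Of the 18 regions assigned to Shh, 4 each had a peak in forelimb 1, forelimb 2 and hindlimb 1 and 2 in hindlimb 2, against 9 in forebrain.

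None of the 18 was ectoderm-only (0%, exact interval up to 18.5%) and 7 were forebrain-only (38.9%). Of these 7, 4 lay inside the gene and 1 at its upper end, so every peak called in the gene body came from forebrain. The strongest by p-value was the end region chr5:28466772-28467239, with a fold enrichment of 3.43, the summit signal over local background in the forebrain list. It was followed by chr5:28464500-28465390 at 2.92-fold and chr5:28459445-28459726 at 3.07-fold, both inside the gene. All 7 were modest peaks of their list, with folds of 2.5 to 3.62 and ranks by p-value between the 8.10 and 58.7 percentiles. Over lists shortened to an equal 51510 peaks, 1 of the Shh regions was still forebrain-only.

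The strongest peak beside Shh was shared rather than forebrain-only. At chr5:28451044-28451595, 5.44 kb beyond the lower end, the fold was 4.15 in forelimb 1 and 3.16 in hindlimb 2, against 9.10 in forebrain, and forelimb 2 and hindlimb 1 had no peak. It was outside the naming rule and was chosen after its values were seen. The region chr5:28520881-28521731 lay 54.1 kb beyond the upper end, within the long noncoding RNA gene 9530036O11Rik. It was forelimb-only, with folds of 3.26 and 3.68 in forelimb and no hindlimb peak, and forebrain had a peak of 4.56-fold there too.

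Lmbr1, a membrane protein gene at chr5:29229802-29378421, had a peak over its start in every library. The region chr5:29377677-29379013 covered it with folds of 10.5 and 6.88 in forelimb and 5.47 and 12.3 in hindlimb, against 16.6 in forebrain. In each list it ranked high, at the 86.98 to 95.1 percentile by p-value in ectoderm and the 97.2 in forebrain. A small hindlimb 1 peak (chr5:29377423-29377623, 3.38-fold) lay 54 bp from the forebrain peak there. Inside Rnf32, the gene next to Lmbr1, the region chr5:29195230-29196548 also had a peak in every library. It had folds of 11.1 and 9.35 in forelimb and 6.51 and 13.48 in hindlimb, against 16.8 in forebrain.

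Inside Lmbr1, no library called a peak over a stretch of 71.9 kb (chr5:29294782-29366719), which is 48.4% of the gene. Of the 12 regions of Lmbr1, 6 were forebrain-only and none was ectoderm-only, forelimb-only or hindlimb-only. The strongest forebrain-only region was chr5:29250825-29251452, 127.1 kb inside the gene from its start, at 7.66-fold. It was followed by chr5:29389436-29389905, 11.2 kb upstream, at 6.65-fold and by chr5:29253814-29254257 at 4.01-fold. The nearest ectoderm peak to the first of these was 33.3 kb away.

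The span from the outer end of Shh to the outer end of Lmbr1 covers 921.6 kb and held 73 regions. Peaks were called in 20, 16, 14 and 26 of them in the ectoderm libraries, against 30 in forebrain. The ectoderm-only count was 1 (against 2.33% of all regions) and the forebrain-only count was 23 (against 33.1%). The ectoderm-only region chr5:28799431-28799882 lay 332.6 kb from Shh and inside no annotated gene. Its folds were 7.78 and 6.10 in forelimb and 2.75 and 6.29 in hindlimb, and the nearest forebrain peak was 8.10 kb away. It ranked at the 89.95 and 83.9 percentiles of the forelimb lists and the 81.5 of hindlimb 2, but at the 29.6 of hindlimb 1, so its place in the class rested on a weak peak in that library.

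Besides the start of Lmbr1 and the region inside Rnf32, 1 region of the span was shared by all 5 libraries. This was chr5:28913417-28914428 in the long noncoding RNA gene Gm35688, 447.1 kb from Shh. Its folds were 5.96 and 5.71 in forelimb and 3.78 and 9.55 in hindlimb, against 3.20 in forebrain, where it ranked only at the 25.1 percentile. Among span regions with no Hedgehog gene nearest, the 3 strongest forebrain-only ones were chr5:28859926-28860506 at 4.22-fold, chr5:28807982-28808377 at 5.03-fold and chr5:28875720-28876412 at 4.63-fold. They lay between 341.0 and 408.7 kb from Shh. The 3 closest calls to ectoderm-only in the span had 3 ectoderm peaks and no forebrain peak, at 395.3, 488.1 and 664.8 kb from Shh. Of these, 2 lacked a peak in hindlimb 1, the shortest list, and 1 lacked it in forelimb 2.

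**Figure D2:**
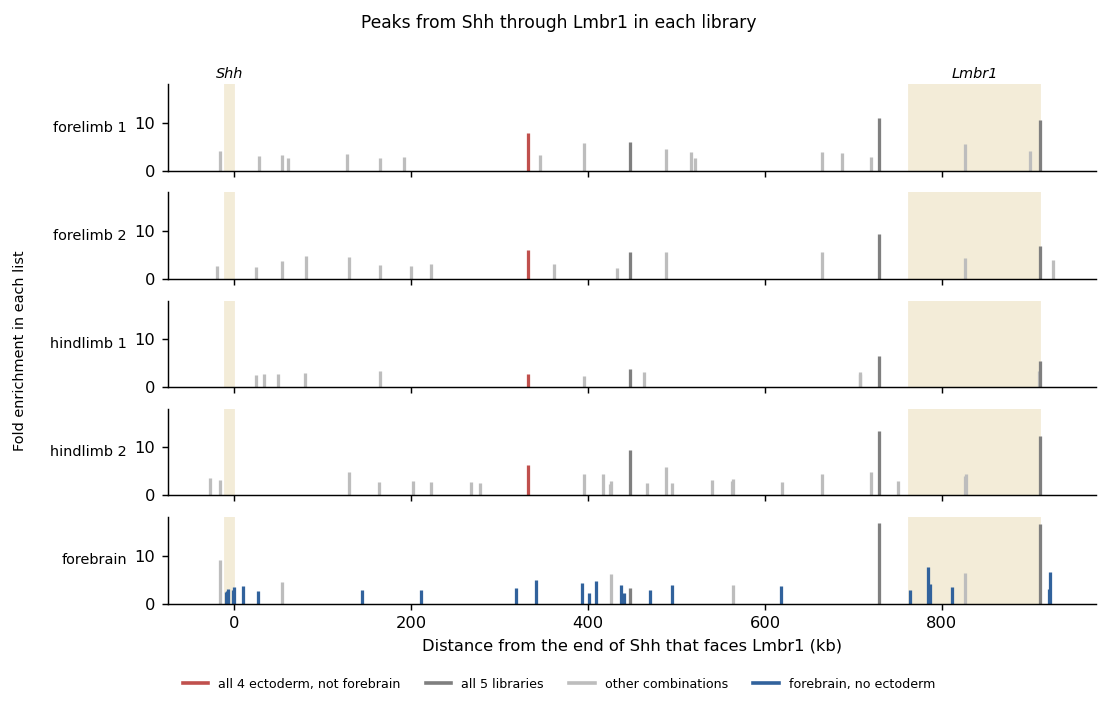
Fold enrichment of each peak in its own list (vertical axis, 1 panel per library, ectoderm above forebrain) against distance in kb from the end of Shh that faces Lmbr1, with both gene bodies shaded. The Shh body holds no ectoderm peak, Lmbr1 has a wide stretch with no peak in any library, and the ectoderm-only region stands alone at 332.6 kb.

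The receptor gene Ptch1 had its ectoderm peaks just upstream of its annotated start and not over it. Ptch1 lies at chr13:63508328-63573460 on the minus strand, and the RefSeq start of the promoter printed above lies inside the gene, 7.74 kb from the summit at its upper end. The ectoderm peaks covered 0 of the 300 promoter bases in each of the 4 libraries, against 35 in forebrain. Those 35 were at the upstream edge of the window, so the start itself lay under no peak there either. The region chr13:63565951-63566566, with its forebrain summit 632 bp upstream of the start, had a peak in all 5 libraries. Its folds were 5.17 and 4.95 in forelimb and 4.14 and 5.01 in hindlimb, against 3.45 in forebrain. A second shared region, chr13:63567596-63568326, lay 2.31 kb upstream with folds of 4.08 and 3.70 in forelimb and 3.35 and 5.52 in hindlimb, against 8.36 in forebrain.

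The order of these shared peaks was not the same in every list. The nearer one ranked higher by p-value in forelimb 1 (88.8 against 82.0), forelimb 2 (87.3 against 77.0) and hindlimb 1 (86.7 against 79.6). In hindlimb 2 (87.8 against 90.2) and in forebrain (84.04 against 97.2) the farther one ranked higher. At the outer end of the gene, chr13:63573304-63574000 had a peak of 2.78-fold in hindlimb 2, against 4.78-fold in forebrain, and none in the other 3 ectoderm libraries. A hindlimb-only region, chr13:63564658-63564922, lay 1.01 kb inside the gene from the start with folds of 2.39 in hindlimb 1 and 1.94 in hindlimb 2, where it ranked at the 12.8 percentile.

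Of the 30 regions of Ptch1, 10, 10, 5 and 13 had a peak in the ectoderm libraries, against 16 in forebrain, and none was ectoderm-only. The longest stretch of the gene with no ectoderm peak was 34.4 kb (52.8% of its length), and with no peak in any library 14.4 kb. Forebrain peaks inside the ectoderm-free stretch included the strongest forebrain-only regions of the gene. These were chr13:63554441-63555035 at 9.64-fold, 10.9 kb inside the gene from the start, chr13:63552565-63552915 at 5.28-fold and chr13:63545334-63545820 at 5.18-fold. The first ranked at the 93.2 percentile of the forebrain list and its nearest ectoderm peak was 7995 bp away. In total 8 regions of Ptch1 were forebrain-only (26.7%), 7 of them inside the gene.

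Smo, which carries the signal across the membrane, had 1 strong shared region. The region chr6:29735238-29736606 covered its start with folds of 10.7 and 9.70 in forelimb and 7.17 and 11.5 in hindlimb, against 11.7 in forebrain. It lay at the 94.2 to 95.9 percentile of the ectoderm lists and the 93.7 of forebrain. The other 4 regions of Smo lay inside the gene, where no library had a peak over 15.4 kb. The 1 forebrain-only region, chr6:29755991-29756245, was weak at 2.45-fold and the 10.9 percentile.

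Sufu, the inhibitor that binds Gli proteins in the cytoplasm, also had a peak over its start in every library. The region chr19:46396623-46397289 had folds of 7.42 and 6.60 in forelimb and 5.94 and 8.39 in hindlimb, against 10.8 in forebrain, and ranked at the 93.1 percentile or above in each list. Within the gene, chr19:46447814-46448455 lay 51.2 kb from the start and was ectoderm-only. Its folds were 4.17 and 5.10 in forelimb and 2.87 and 6.13 in hindlimb. A forebrain-only region, chr19:46447154-46447446 at 3.78-fold, lay only 368 bp from it, so neighbouring intervals with peaks in different tissues were split here at the 1 bp overlap rule. The other forebrain-only regions were chr19:46406588-46406884 at 3.92-fold and chr19:46470883-46471117 at 3.44-fold. Of the 14 regions of Sufu, 7, 9, 3 and 5 had a peak in the ectoderm libraries, against 8 in forebrain.

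Gli1, a target and amplifier of the pathway, had 6 regions and 1 shared by all libraries. The gene lies at chr10:127329882-127341579, and the shared region chr10:127338883-127339526 lay inside it near its upper end. Its folds were 5.24 and 4.47 in forelimb and 2.73 and 5.09 in hindlimb, against 7.79 in forebrain. Beyond the upper end, chr10:127342204-127342609 was forelimb-only, with folds of 2.74 and 2.77 in forelimb and none in hindlimb, against 3.02 in forebrain. Forelimb 1 alone had a peak at the lower end, chr10:127330734-127330979, at 2.45-fold. The forebrain-only region chr10:127332153-127332506 had a fold of 2.96 and lay 492 bp from an ectoderm peak.

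Gli2 had the most ectoderm-only regions of the 8 genes. It lies at chr1:118834061-119054405 on the minus strand and spans 220.3 kb. Of its 63 regions 24, 19, 15 and 28 had a peak in the ectoderm libraries, against 37 in forebrain. Its 5 ectoderm-only regions made 7.94% of the 63 (2.63 to 17.6%), against 2.33% of all regions, and 21 were forebrain-only (33.3%, 22.0 to 46.3%), against 33.1%. At least 5 ectoderm-only regions were found at 38 of 21883 protein-coding genes (0.174%), of which Gli2 was 1, and that count does not allow for the number of regions a gene has. The 7.94% was not compared by a test, and its interval covers counting error only, as if the regions of 1 gene were independent.

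The start of Gli2 was covered by a peak in every library. The region chr1:119053257-119054380 had its summit 72 bp upstream of the RefSeq start and covered 292 to 300 of the 300 promoter bases in the ectoderm libraries, against 300 in forebrain. Its folds were 7.99 and 7.01 in forelimb and 6.24 and 10.2 in hindlimb, against 9.97 in forebrain. A hindlimb 1 peak alone, chr1:118834483-118834686 at 3.27-fold, lay at the other end of the gene.

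The strongest ectoderm-only region of all Hedgehog genes lay deep inside Gli2. At chr1:118873425-118874013, 179.9 kb downstream of the start, the folds were 10.6 and 7.56 in forelimb and 7.32 and 12.7 in hindlimb. Summits recovered from these values held 104, 76, 81 and 184 reads. The region ranked at the 96.0 and 92.3 percentiles of the forelimb lists and the 95.5 and 97.4 of the hindlimb lists. In each list it stood among the strong peaks, and its folds were above those of the Gli2 start in forelimb 1, forelimb 2, hindlimb 1 and hindlimb 2. The nearest forebrain peak was 6.82 kb away.

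A further ectoderm-only region inside the gene, chr1:118839771-118840201, lay 213.7 kb from the start. Its folds were 6.38 and 8.05 in forelimb and 4.77 and 7.75 in hindlimb, and the nearest forebrain peak was 3.77 kb away. With a −log10 q of at least 5 required of every peak, it and the region at 179.9 kb were the 2 regions of Gli2 still called ectoderm-only. The third inside the gene, chr1:118902127-118902670, lay 151.2 kb from the start with folds of 5.83 and 5.72 in forelimb and 2.42 and 6.30 in hindlimb. Upstream of the gene, chr1:119065061-119065621 lay 11.8 kb from the start with folds of 7.34 and 5.75 in forelimb and 2.86 and 8.59 in hindlimb. In both of these hindlimb 1 was the low library, at the 13.1 and 36.5 percentiles of its own list. The fifth, chr1:118788694-118789226, lay 45.1 kb beyond the far end of the gene with folds of 4.55 and 3.13 in forelimb and 4.08 and 5.17 in hindlimb. A forebrain peak began 93 bp from it, so it was the least separate of the 5.

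**Figure D3:**
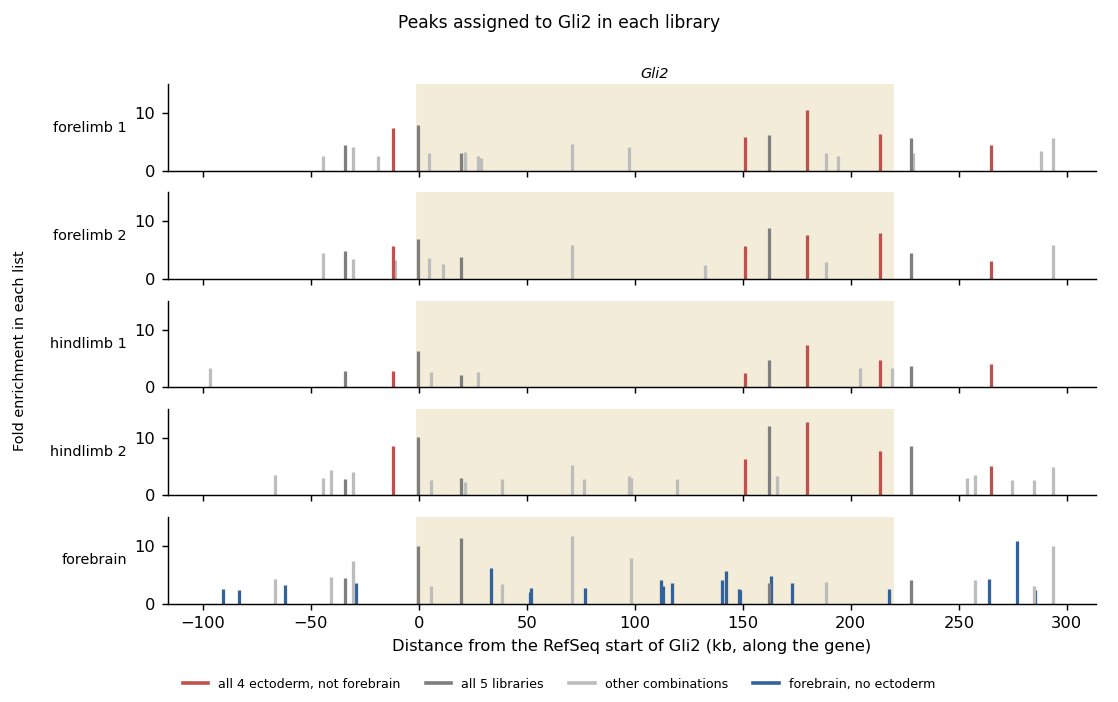
Fold enrichment of each peak assigned to Gli2 in its own list (vertical axis, 1 panel per library, ectoderm above forebrain) against distance in kb from the RefSeq start, positive along the gene, with the gene body shaded. Of the 5 ectoderm-only regions, 3 lie between 151.2 and 213.7 kb in the far part of the gene, around the shared region at 162.0 kb.

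Other regions of Gli2 were shared by tissues. Besides the start, 4 had a peak in all 5 libraries. At chr1:118891375-118891880, inside the gene and 162.0 kb from the start, the folds were 6.12 and 8.91 in forelimb and 4.76 and 12.1 in hindlimb, against 3.66 in forebrain. The region ranked at the 86.6 to 96.8 percentile of the ectoderm lists and at the 59.7 of forebrain. The reverse was seen at chr1:119033614-119034374, 19.6 kb inside the gene, with folds of 3.02 and 3.83 in forelimb and 2.12 and 2.99 in hindlimb, against 11.4 in forebrain. There the ectoderm ranks were 0.446 to 60.8 and the forebrain rank was 91.9.

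The remaining shared regions lay outside the gene. At chr1:118825153-118825986, 8.25 kb beyond its far end, the folds were 5.68 and 4.51 in forelimb and 3.72 and 8.59 in hindlimb, against 4.06 in forebrain. At chr1:119087449-119087904, 34.1 kb upstream, they were 4.46 and 4.89 in forelimb and 2.86 and 2.92 in hindlimb, against 4.40 in forebrain. Limb-specific calls of Gli2 were weak. The forelimb-only regions were chr1:118864667-118865303, with folds of 3.15 and 3.04 and a forebrain peak of 3.73, and chr1:119048520-119048799, with folds of 3.01 and 3.60 and no forebrain peak. The hindlimb-only region chr1:119047421-119048262 had folds of 2.67 and 2.73, with a forebrain peak of 3.10 and lay close to the second forelimb-only region.

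The forebrain-only share of Gli2 was near that of the series, with 14 inside the gene and 7 outside. The strongest, chr1:118776503-118777164, lay 57.3 kb beyond the far end with a fold of 10.8 and the 93.2 percentile of its list. It was followed by chr1:118910663-118911571 at 5.71-fold and chr1:119020078-119020469 at 6.21-fold, both inside the gene. The other 18 reached down to 2.1-fold, and 5 of the 21 lay within 1 kb of an ectoderm peak.

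**Figure D4:**
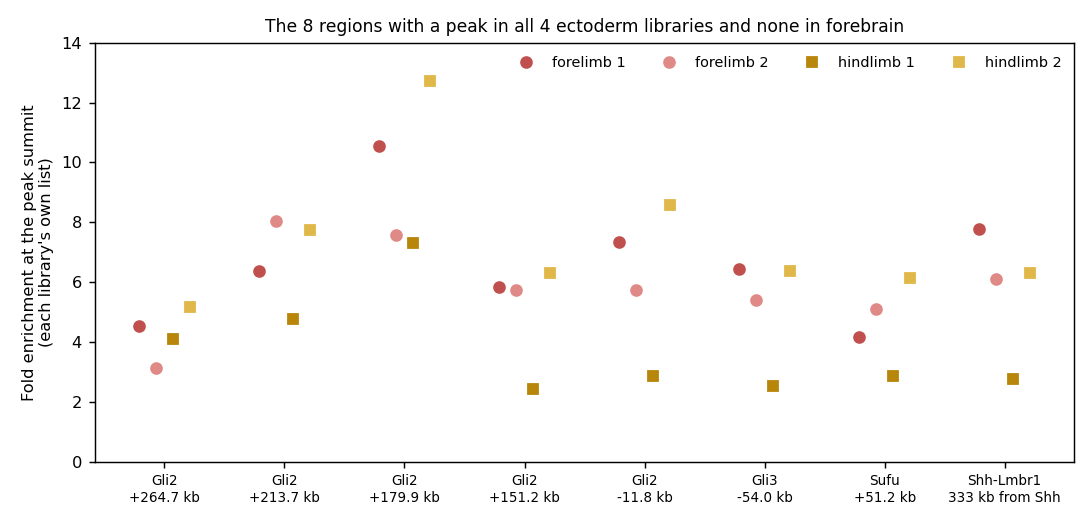
Fold enrichment at the summit in each ectoderm library's own list (vertical axis) for the 8 regions with a peak in all 4 ectoderm libraries and none in forebrain, named by gene and distance from its start (the last by distance from Shh). The Gli2 region at 179.9 kb is highest in 3 of the 4 libraries, and hindlimb 1 is the lowest library in 7 of the 8 regions.

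Gli3 had the most regions and the most forebrain-only regions of the 8 genes. It lies at chr13:15463723-15730026 on the plus strand and spans 266.3 kb. Of its 71 regions 18, 19, 9 and 22 had a peak in the ectoderm libraries, against 46 in forebrain. Forebrain-only regions made 46.5% (33 regions, 34.5 to 58.7%), against 33.1% of all regions, and 165 protein-coding genes, Gli3 among them, had at least 33, a count that again does not allow for region number. Ectoderm-only regions made 1.41% (1 region, 0.0357 to 7.6%), against 2.33%. Both intervals treat the regions of 1 gene as independent, and neither share was compared by a test. The forebrain list is the longest. With lists of equal length Gli3 had 13 forebrain-only and 2 ectoderm-only regions, while Gli2 had 7 and 5. In that setting the shares over all regions were 18.9% forebrain-only and 4.76% ectoderm-only, and shares by gene are not given here.

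Most forebrain-only regions of Gli3 lay in the gene body, as did 47 of all its 71 regions. Of the 33, 27 lay inside the gene, 1 at its start and 5 outside. The 3 strongest by p-value were chr13:15543611-15544683, 80.8 kb inside, at 6.23-fold, chr13:15624543-15625257, 161.2 kb inside, at 7.29-fold, and chr13:15676947-15677614, 213.6 kb inside, at 9.45-fold. The last had no ectoderm peak within 21.6 kb on either side and stood in the longest ectoderm-free stretch of the gene, 44.2 kb. A −log10 q of at least 5 was reached by 21 of the 33. The 1 at the start, chr13:15464290-15464562 at 2.40-fold, lay 31 bp from an ectoderm peak and was next to the shared start region.

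Of the peak rows assigned to Gli3, 9 of 20 and 12 of 23 lay inside the gene in forelimb and 2 of 10 and 13 of 26 in hindlimb, against 42 of 58 in forebrain. Rows count each summit, so a peak with several summits counts more than once. The regions with a peak were 18 and 19 in forelimb and 9 and 22 in hindlimb, against 46 in forebrain. The share of rows inside genes over all genes is not given here. The start region chr13:15462735-15464259 had folds of 8.003 and 6.34 in forelimb and 5.69 and 7.80 in hindlimb, against 8.56 in forebrain. Upstream, 3 regions shared by all 5 libraries lay at 68.3, 42.15 and 36.6 kb from the start. The first, chr13:15395184-15395694, had folds of 10.8 and 11.7 in forelimb and 4.48 and 11.7 in hindlimb, against 5.90 in forebrain. The second, chr13:15421287-15421768, had folds of 6.36 and 4.81 in forelimb and 3.18 and 6.04 in hindlimb, against 3.38 in forebrain. The third, chr13:15426905-15427384, had folds of 10.7 and 9.30 in forelimb and 5.66 and 8.85 in hindlimb, against 7.70 in forebrain. Within their own lists the 3 ranked between the 44.0 and 95.1 percentiles in ectoderm, and between the 30.1 and 77.1 percentiles in forebrain. Ranks from lists of different lengths show no change between tissues.

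The single ectoderm-only region of Gli3 lay among them. At chr13:15409481-15409891, 54.05 kb upstream and inside the long noncoding RNA gene Gm20043, the folds were 6.43 and 5.39 in forelimb and 2.54 and 6.36 in hindlimb. Hindlimb 1 was again the low library, at the 13.3 percentile, and the nearest forebrain peak was 1695 bp away. A forelimb-only region, chr13:15446080-15446409, lay 17.45 kb upstream with folds of 3.57 and 3.70 and no forebrain peak. Beyond the far end of the gene, chr13:15758787-15759909 was shared, with folds of 6.18 and 8.21 in forelimb and 4.20 and 8.69 in hindlimb, against 12.5 in forebrain.

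**Figure D5:**
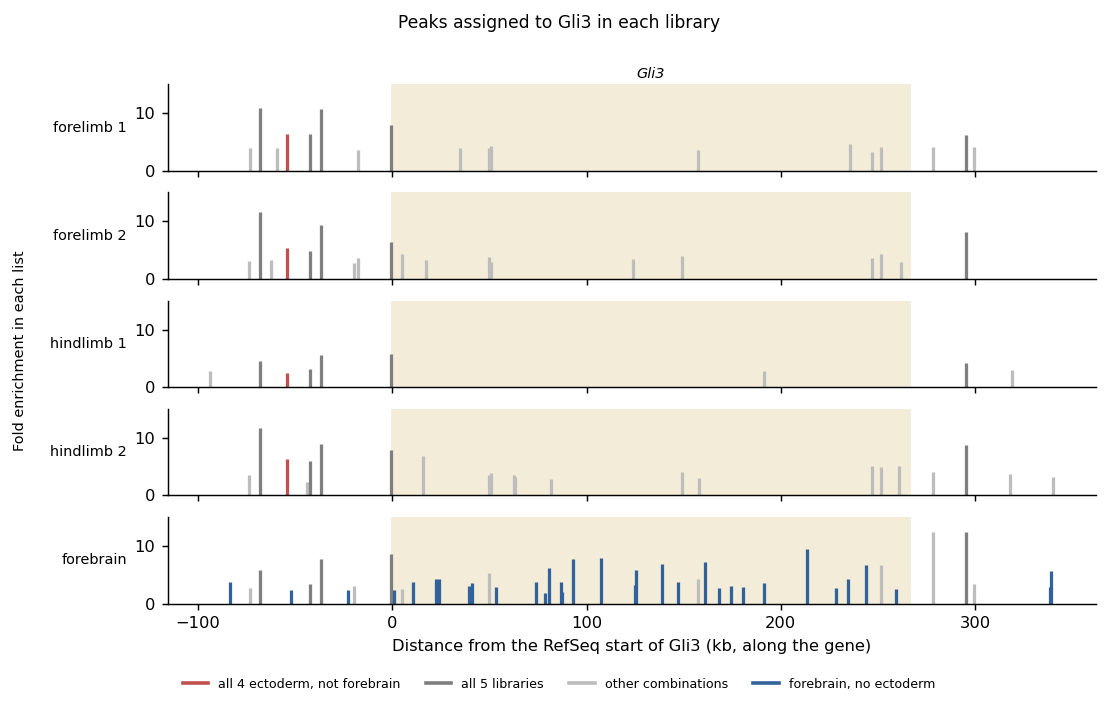
Fold enrichment of each peak assigned to Gli3 in its own list (vertical axis, 1 panel per library, ectoderm above forebrain) against distance in kb from the RefSeq start, positive along the gene, with the gene body shaded. Regions shared by all 5 libraries lie at the start, up to 68.3 kb upstream of it and 295.6 kb downstream, and 27 forebrain-only regions lie in the gene body.

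A gene-end peak in all 5 libraries was found at Lmbr1, Smo, Gli2, Gli3 and Sufu (5 of 8 genes), against 46.4% of protein-coding genes. Shh had its end peak in forebrain alone, Ptch1 in hindlimb 2 and forebrain, and Gli1 in both forelimb libraries and forebrain. At the 5 genes with one in every library the summits lay within 99 bp of the RefSeq start. At Ptch1, whose RefSeq start lies inside the gene, they lay 632 to 661 bp from it in all 5 libraries.

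Between the limbs little was called. Both forelimb and neither hindlimb library had a peak in 5 regions (1.87%), against 1.97% of all regions: 2 of Gli2 and 1 each of Gli1, Gli3 and Shh. Both hindlimb and neither forelimb library had a peak in 2 regions (0.746%), against 0.655% of all regions, 1 of Gli2 and 1 of Ptch1. All 7 had folds of 3.70 or below in each limb library. The shares are near those of the series, so they are no result about Hedgehog genes as a group. Whether any single region differs between the limbs was not tested.

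The ectoderm-only count depended on hindlimb 1, the shortest list. Of 8 Hedgehog regions with 3 ectoderm peaks and no forebrain peak, 7 lacked hindlimb 1, and over the series 78.8% of 6889 such regions did. Without hindlimb 1 the ectoderm-only count was 15 (5.93%), against 5.14% of all regions, with 6 at Gli2, 3 at Gli3, 2 at Sufu, 1 at Ptch1 and 3 in the Shh to Lmbr1 span. The share of regions called in 1 library alone was 67.9% for Hedgehog genes, against 71.1% of all regions.

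The rest of the pathway was described through 60 other genes, which had 755 regions. Of these, 20 were ectoderm-only (2.65%), against 2.35% of the regions assigned to all protein-coding genes, and 270 were forebrain-only (35.8%), against 32.1%. The shares by role were 3 and 49 of 125 for ligands and their release, 5 and 57 of 154 for receptors, co-receptors and surface antagonists, 10 and 70 of 223 for cilium and cytoplasmic regulators, and 2 and 89 of 233 for transcription targets and Shh regulators. The neighbours of Shh and Lmbr1 had 0 and 5 of 20. A gene-end peak in all 5 libraries was found at 18 of the 24 cilium and cytoplasmic regulators and at 5 of the 17 targets and Shh regulators, against 46.4% of protein-coding genes, and the difference between these lists was not tested.

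Ectoderm-only regions were found at 18 of the 60 genes, against 14.2% of protein-coding genes, a comparison that does not allow for the number of regions a gene has. Fbxw11, a ubiquitin ligase subunit that takes part in Gli processing, had 3, and each of the others had 1. Among ligand genes these were Hhat, which attaches palmitate to Hedgehog proteins, Disp1, which releases them, and Scube3, a secreted carrier. Among receptors and surface antagonists they included the decoy receptor Hhip and the co-receptors Boc and Gas1. Among regulators they were Gpr161, a ciliary receptor that restrains the pathway, Spopl, a relative of the ubiquitin ligase adaptor Spop, the kinases Gsk3b and Csnk1e, the arrestin Arrb1, the ciliary GTPase Arl13b, and Tulp3, which brings Gpr161 to the cilium. Among targets and Shh regulators they were Nkx2-1, a forebrain target of Shh, and Etv4. The most forebrain-only regions were found at Mycn with 17, and at Nkx2-1 and Btrc with 15 each. Nkx2-1 had a gene-end peak in none of the ectoderm libraries, against a peak in forebrain, and Mycn, a target that drives growth of neural progenitors, had one in all 5.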

How the data were processed

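The submitters' processing notes name the mm10 build, MACS2 2.1.1.20160309 as peak caller, Bowtie2 2.3.5, cutadapt 1.16, bedtools and Picard. A shift of reads to the transposase cut is not stated there. Each library has its own peak list from the authors, and none was made from pooled replicates. Each deposited list gives an interval, a summit, a score (not used), a fold enrichment at the summit as a ratio, and p- and q-values as −log10. Over the libraries the lowest −log10 q was 1.30 to 1.31, near the value of a q of 0.05. Folds and p-values are the authors' own for each list and only describe, rank or filter peaks within it.

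Only rows on the autosomes and sex chromosomes entered the counts. For counts of distinct peaks and of regions, rows that share an interval and differ in summit were taken as 1 peak. Counts of peak rows and percentile ranks took each row by itself. Gene ends came from a RefSeq table of GRCm38.p6, which has 21883 protein-coding genes with ends only, so intron and exon are not given. Ectoderm-only, forebrain-only, forelimb-only and hindlimb-only regions follow the definitions in the report, and a gene-end peak has a summit within 1 kb of either end. The summit pileup and background were recovered by inverting the Poisson p-value of MACS2 and met the stated −log10 p within 0.01 for 99.97% or more of 3000 sampled peaks per library, and the code was tested on simulated data. Python 3.11.15, numpy 2.4.6, pandas 2.3.3, scipy 1.17.1 and matplotlib 3.10.9 were used. No test was run.

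The genes named follow a rule: every region of the 8 genes at a gene end, in all 5 libraries, ectoderm-only or limb-only, the 3 forebrain-only regions per gene with the highest −log10 p, every other pathway gene with an ectoderm-only region, and the 3 with most forebrain-only regions. A few of these are left out by name. The genes and lists were chosen with earlier results of these data known. In 10 alternatives the q threshold, list length, overlap rule, unit of presence, distance to the gene and each ectoderm library were changed.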

Additional observations from a re-analysis of the deposited data

How the results depend on the processing

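No paired analysis was possible because the results are counts of regions from no test. All 10 alternatives were run, and the cause of each move below was not tested. Where a library was left out, the classes were defined on those that remained. A limb with 1 library left then needed a peak in that library alone. With a −log10 q of at least 5, ectoderm-only Hedgehog regions numbered 3, forelimb-only 1 and hindlimb-only 0, span forebrain-only regions 13 and other pathway ectoderm-only regions 12. The forelimb-only and hindlimb-only Hedgehog shares were 0.671% and 0%, against 2.15% and 0.423% of all regions. With that threshold for presence only, the counts were 2 ectoderm-only, 53 forebrain-only, 0 forelimb-only and 0 hindlimb-only for the Hedgehog genes, 0 and 12 for the span (ectoderm-only, then forebrain-only), and 10 and 158 for the other pathway genes. With lists of equal length the counts were 33 forebrain-only, 3 forelimb-only and 1 hindlimb-only for the Hedgehog genes, 2 and 5 for the span, and 88 forebrain-only for the other pathway genes. The Hedgehog shares there were 21.9%, 1.99% and 0.662%, against 18.9%, 2.68% and 1.02% of all regions. With summits chained within 150 bp the span had 2 ectoderm-only regions. Leaving out 1 ectoderm library gave 8 to 15 ectoderm-only, 5 to 33 forelimb-only and 2 to 45 hindlimb-only Hedgehog regions, 1 to 3 ectoderm-only span regions and 20 to 32 ectoderm-only regions of the other pathway genes, the highest ectoderm-only counts being without hindlimb 1. Beside these, 49 of the 78 alternative counts stayed within 1.5 times the reported one. The rise of the limb-only counts on leaving out a library of that limb was also seen over all regions. Forelimb-only regions of the series went from 4573 to 30022 without forelimb 1 and to 29814 without forelimb 2. Hindlimb-only regions of the series went from 1517 to 29499 without hindlimb 1 and to 23882 without hindlimb 2. At −log10 q of at least 5 the ectoderm-only share was 2.01% of 149 Hedgehog regions, against 3.06% of all regions, and with lists of equal length 6.62% of 151, against 4.76%, so its side of the series share depended on the threshold. A missing peak shows only that none was called, and the hindlimb 1 list was the shortest, with 51510 peaks. Its implied background of 4.36 reads was the highest of the ectoderm libraries. Read totals are not given, so why its list is short was not tested.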
